A study of Mus musculus with 2 samples.

Results

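Pregranulosa cells are the somatic cells that enclose each oocyte when primordial follicles form, and 8 genes that mark or serve them were followed here: Foxl2, Lgr5, Runx1, Fst, Kitl, Irx3, Irx5 and Gng13. Every probe set whose only gene symbol in the platform annotation was one of these was taken. That gave 20 of the 34945 single-symbol probe sets of the array and 8 of the 18193 genes they cover. The study used ovaries of mice at 2 days of age. The control group carried the conditional SmoM2 allele, an activated form of the hedgehog signal transducer Smoothened, with wild-type Amhr2, labelled Amhr2(+/+)-SmoM2. The mutant group, Amhr2(cre/+)-SmoM2, carried the same allele and Cre at 1 copy of Amhr2, the locus of the receptor for anti-Müllerian hormone, which drives Cre in somatic cells of the gonad. The Cre allele and SmoM2 activation therefore differ together between the groups and cannot be told apart.

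Each group was 1 pool of RNA from 8 mice, hybridised to 1 array, so no value below has a replicate error, a test or a p-value, and the number of arrays limits every comparison. Signals are linear probe-set intensities as deposited. A probe set is called measured where the brighter pool reached 80.7, the median of all values. Log2 ratios, mutant over control, use signals raised by a pseudocount of 22.2 (percentile 25 of the values), so differences of dim probe sets are understated. Counts at 1.5-fold and 2-fold use this ratio, while a fold given for a gene is the plain ratio of its signals, and a lower bound where 1 signal was under the minimum. The only spread that could be computed is the SD between measured probe sets of the same gene, 0.39 on the log2 ratio over 5118 genes. It can also hold differences between transcripts and is not a replicate error. RNA came from whole ovaries, where fewer cells of a type and less RNA per cell cannot be told apart.

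Pregranulosa cells take on a female somatic fate as the ovary forms, and the forkhead factor Foxl2 with R-spondin and Wnt signalling keeps that fate against the Sertoli fate of the testis. They surround the oocytes as germ cell nests break up, and later become the granulosa cells of the follicle. Through Kit ligand they signal to Kit on the oocyte surface, which supports oocyte survival and the start of growth. Follistatin, which they secrete, binds activins and blocks them.

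Promoter sequence in the RefSeq table, of build GRCm38.p6, matched 5 of the 8 genes (Foxl2, Runx1, Kitl, Irx3 and Gng13) with 7 start sites. Lgr5, Fst and Irx5 had no entry. The 250 bases before the start are shown for Foxl2, the gene that defines the lineage, for the distal and proximal starts of Runx1, whose probe sets differed among themselves, and for Kitl, whose signals stood apart from those of the other genes. The Runx1 probe sets differed about as much as those of other genes, and which start each reads was not tested. They run 5′ to 3′ in the direction of transcription, and capitals mark the GC box, CCAAT box and TATA box letters named after them.
Foxl2, chr9:98955357-98955606, plus strand: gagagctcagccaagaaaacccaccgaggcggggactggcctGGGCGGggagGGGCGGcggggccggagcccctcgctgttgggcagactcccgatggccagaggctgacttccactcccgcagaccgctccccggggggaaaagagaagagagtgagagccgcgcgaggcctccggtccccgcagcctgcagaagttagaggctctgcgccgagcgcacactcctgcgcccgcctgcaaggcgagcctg
Runx1 distal, chr16:92826075-92826324, minus strand: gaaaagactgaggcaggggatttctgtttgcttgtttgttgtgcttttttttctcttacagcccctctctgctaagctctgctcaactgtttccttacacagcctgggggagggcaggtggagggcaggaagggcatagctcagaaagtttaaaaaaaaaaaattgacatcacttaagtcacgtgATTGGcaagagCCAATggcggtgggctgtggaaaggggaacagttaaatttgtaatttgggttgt
Runx1 proximal, chr16:92697330-92697579, minus strand: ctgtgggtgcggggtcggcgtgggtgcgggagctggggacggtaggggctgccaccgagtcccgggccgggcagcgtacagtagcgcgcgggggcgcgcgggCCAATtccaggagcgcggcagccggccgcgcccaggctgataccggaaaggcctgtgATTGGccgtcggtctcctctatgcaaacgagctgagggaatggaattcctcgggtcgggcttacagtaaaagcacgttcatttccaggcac
Kitl, chr10:100015571-100015820, plus strand: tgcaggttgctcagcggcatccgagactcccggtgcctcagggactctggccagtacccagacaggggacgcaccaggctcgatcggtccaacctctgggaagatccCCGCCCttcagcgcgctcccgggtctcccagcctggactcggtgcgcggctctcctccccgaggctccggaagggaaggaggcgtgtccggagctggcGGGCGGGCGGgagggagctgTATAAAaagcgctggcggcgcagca

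The letters were searched on both strands over the 250 bases of all 32851 promoters in the table. The GC box letters GGGCGG occurred in 3 of the 7 promoters of these genes (Foxl2, Kitl and 1 of the 2 starts of Gng13) and in 32.7% of all promoters. The CCAAT letters were in both Runx1 promoters and in 33.8% of all. The TATA letters TATAAA occurred in Kitl alone among the 7, 25 bases before the start, and in 12.4% of all promoters. GLI factors, the transcription factors of the hedgehog pathway, bind GACCACCCA. Those letters were in 0 of the 7 promoters and in 0.225% of all, the forkhead letters GTAAACA in 0 and 3.17%, and the RUNX letters TGTGGT in 0 and 14% (0 says only that these letters are not in these windows). GC content ran from 45.6% for the distal Runx1 start to 70.8% for Foxl2, against a median of 52.4% over all promoters.

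Of the 8 genes, 7 were lower in the mutant pool by 1.5-fold or more and Kitl was not. Over all 12308 measured genes, 7.88% were that much lower. The 8 genes were chosen with earlier results of these data known, so this contrast is a description only. The log2 ratios, each from the brightest measured probe set of its gene, ran from -1.23 for Lgr5 to 0.18 for Kitl. Their median was -0.87, against -0.02 over all measured genes. Lgr5 and Runx1 were at least 2-fold lower, as were 1.4% of all measured genes. None of the 8 was 1.5-fold higher, where 9.31% of all measured genes were. All 8 genes were measured, on 14 of their 20 probe sets. Of these 14, 13 read lower in the mutant pool, against 54.3% of all measured single-symbol probe sets, and 10 read 1.5-fold lower or more, against 9.86%. The exception was the brightest Kitl probe set. Probe sets of 1 gene share their transcript and do not count as independent.

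**Figure D1:**
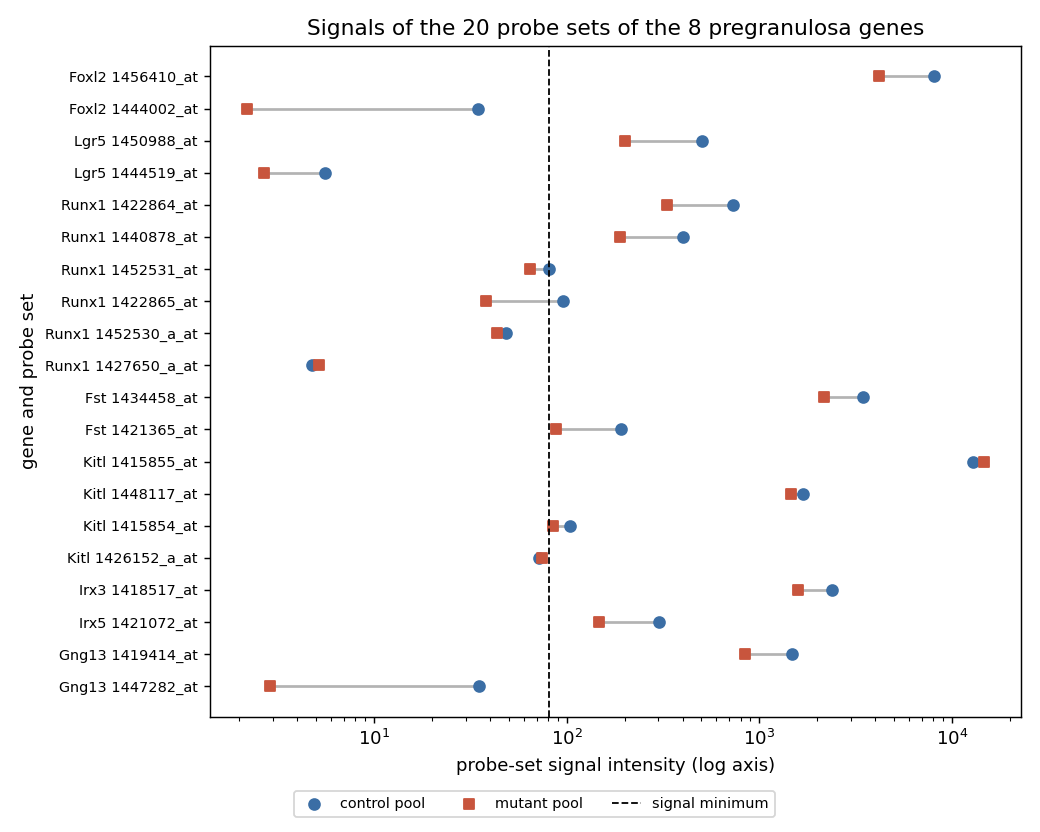
Signal of the 20 probe sets of the 8 genes in the control pool (circles) and the mutant pool (squares), on a log axis, with the signal minimum of 80.7 as a dashed line. Foxl2, Lgr5, Runx1, Fst, Irx3, Irx5 and Gng13 read lower in the mutant pool on each measured probe set, and Kitl changes side between its probe sets.

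The transcription factors come first. Foxl2 (Entrez gene 26927), the forkhead factor that marks the granulosa lineage, had a signal of 8097 in control and 4182 in mutant ovaries on probe set 1456410_at. The mutant signal was 51.7% of the control signal (1.94-fold lower, log2 ratio -0.95). Among all measured genes, 1.80% had a ratio at or below this one. Among the 3077 brightest genes, with mean signals of 1824 or more, the share was 0.325%. Its other probe set, 1444002_at, read 34.8 and 2.2 and lay under the signal minimum in both pools, so it gives no fold.

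Runx1 (12394), a factor expressed in the supporting cells of the fetal ovary and also in blood cell precursors, had 6 probe sets, of which 4 were measured. Probe set 1422864_at read 734 in control and 331 in mutant ovaries, and 1440878_at read 401 and 189. These brighter probe sets were 2.22-fold and 2.12-fold lower in the mutant pool. The dim ones differed from each other. Probe set 1422865_at read 95.9 and 38.4, at least 1.19-fold lower with the mutant signal raised to the minimum, and 1452531_at read 81.2 and 64.6. Probe sets 1452530_a_at and 1427650_a_at were under the minimum, at 48.4 and 43.8, and at 4.8 and 5.2. The log2 ratios of the 4 measured probe sets ran from -1.10 to -0.25, with an SD of 0.39, about that between probe sets of a gene over the whole array.

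Irx3 (16373) and Irx5 (54352) are Iroquois homeobox factors that lie next to each other on chromosome 8. Irx3 had a signal of 2389 in control and 1584.5 in mutant ovaries on its only probe set, 1418517_at. Its log2 ratio of -0.59 lay just past the 1.5-fold line, which is a log2 difference of 0.585, and it fell short of it under 3 of the 12 alternative settings. Irx5 had a signal of 303.5 and 147.4 on its only probe set, 1421072_at, 2.06-fold lower (log2 ratio -0.94). Of all measured genes 1.86% had a ratio at or below that of Irx5, but of the 3077 dimmest genes, to which Irx5 belongs and where ratios spread most, 4.615% did, and 13.7% of these were 1.5-fold lower. Both were lower in the mutant pool, and their ratios differed by less than the SD between probe sets of a gene. Fto, the protein-coding gene beside Irx3 in RefSeq, read 1028 and 1292 (log2 ratio 0.32). Irx6, the gene beside Irx5, was under the signal minimum at 3.7 and 6.2.

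Lgr5 (14160), the receptor of R-spondins that marks pregranulosa cells and the ovarian surface epithelium, had the lowest ratio of the 8 genes. Probe set 1450988_at read 503 in control and 202 in mutant ovaries, 2.49-fold lower, with a log2 ratio of -1.23. Of all measured genes, 0.585% had a ratio at or below it. Its second probe set, 1444519_at, was dim in both pools at 5.6 and 2.7.

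The secreted products did not go together. Fst (14313), which encodes follistatin, read 3462 in control and 2169 in mutant ovaries on 1434458_at, and 191 and 88.6 on 1421365_at. Both Fst probe sets were lower in the mutant pool, 1.60-fold and 2.15-fold. Kitl (17311), which encodes Kit ligand, read 12948 in control and 14627 in mutant ovaries on 1415855_at, 1.13-fold higher. It read 1685 and 1464.5 on 1448117_at, and 104 and 85.2 on 1415854_at, and the dim 1426152_a_at read 71.7 and 74.9. The 3 measured Kitl probe sets thus lay on either side of equality, with log2 ratios of 0.18, -0.20 and -0.24, each smaller than the SD of 0.39. The direction of the brightest flips to -0.05 when ratios are centred on the spiked hybridization controls (spiked controls below). No Kitl probe set came near 1.5-fold in either direction.

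Gng13 (64337), which encodes a gamma subunit of heterotrimeric G proteins, read 1485 in control and 848 in mutant ovaries on 1419414_at. It was 1.75-fold lower (log2 ratio -0.79), and 3.51% of measured genes had a ratio at or below it. Probe set 1447282_at read 35.1 and 2.9, under the minimum in both.

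In order of log2 ratio the genes ran Lgr5, Runx1, Foxl2, Irx5, Gng13, Fst, Irx3 and Kitl. From Lgr5 to Irx3, neighbours in that order lay at most 0.15 apart, less than the SD of 0.39 between probe sets of a gene, so the order of neighbours was not resolved. Lgr5 and Irx3, the ends of this run at -1.23 and -0.59, lay further apart than that SD. The step from Irx3 to Kitl was 0.76, or 1.98 times that SD. A difference between 2 genes spreads more than 1 probe set does, so that SD does not show whether either distance was resolved. Signals of different probe sets depend on their probes and were not compared as levels between genes.

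**Figure D2:**
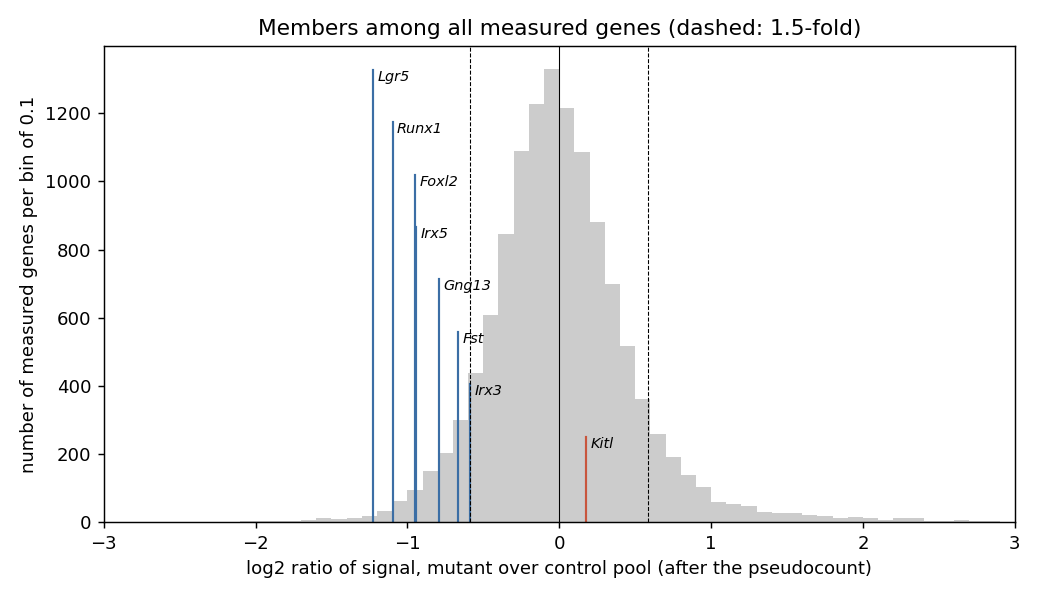
Histogram of the log2 ratio of mutant over control for the 12308 measured genes, in bins of 0.1, with a line for each of the 8 genes (line heights only separate the names; dashed lines mark 1.5-fold). Lgr5 to Irx3 sit between -1.23 and -0.59, in the lower tail, and Kitl at 0.18 sits inside the bulk. The axis ends at 3 in each direction, which leaves out 20 genes.

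The other listed genes of pregranulosa and granulosa cells did not share the lower readings as a group. Of 23 listed genes 19 were measured, and 2 were at least 1.5-fold lower, 2 at least 1.5-fold higher and 15 within 1.5-fold. Over all measured genes 7.88% were that much lower and 9.31% higher, shares that also apply to the lists below. Ratios were under 0 for 7 of the 19 and above 0 for the rest. Those under 0 were Amhr2, Nr5a2, Inhbb (-0.489), Wt1 (-0.455), Emx2 (-0.454), Wnt4 (-0.445) and Rspo1 (-0.423). The list also holds genes active in other ovarian cells, such as Gja1 and Lhx9, and the part of those cells in these readings was not tested. The median log2 ratio of the 19 was 0.13, which flips to -0.10 when ratios are centred on the spiked controls, and 7 were then 1.5-fold lower. With the dimmest measured probe set of each gene 0 were lower and 4 higher. Amhr2, the receptor of anti-Müllerian hormone and the locus that holds Cre in the mutant mice, read 8591 in control and 3486 in mutant ovaries, 2.46-fold lower, with a log2 ratio of -1.30. Its 3 probe sets read -1.30, -1.26 and -0.26, and the suffix of the first pair marks probes that other transcripts can share. Nr5a2, a nuclear receptor that granulosa cells need for ovulation, read 2117 and 1169 (log2 ratio -0.84, and -0.97 and -0.16 on its other probe sets). Inhba, an activin subunit, read 47.0 and 164, at least 2.03-fold higher, and Bmp2, a BMP ligand of pregranulosa cells, read 339 and 600 (1.77-fold higher). Esr2, Fshr and Amh, genes of granulosa cells in growing follicles, were under the signal minimum in both pools, Amh at 9.1 and 9.8, and Cyp19a1 had no single-symbol probe set. Smo, the gene behind the SmoM2 allele, read 0.28 and 0.49 as log2 ratios of its measured probe sets, and whether these detect the SmoM2 transcript was not tested.

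The partners of Lgr5 were mixed. Of 19 measured genes among 23 for R-spondins, LGR receptors and canonical Wnt signalling, 2 were 1.5-fold lower, 2 higher and 15 within 1.5-fold. Gsk3b was within it on its brightest probe set, but its 6 measured probe sets ran from -1.09 to 0.35. Rspo2, an R-spondin, read 2749 in control and 1750 in mutant ovaries, 1.57-fold lower. Nkd1, an intracellular Wnt antagonist, read 1334 and 774, but its 4 measured probe sets ran from -1.38 to 0.03. Rspo3 and Lgr6 were dim in the control, at 68.6 and 25.8, and read 123 and 111 in mutant ovaries, at least 1.52-fold and 1.38-fold higher. The median was 0.07 and flips to -0.16 on the spiked controls.

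Fst acts on activins, and of 12 measured genes among 14 for activins, inhibins, receptors and Smads, 0 were 1.5-fold lower and 2 higher. These were Inhba and Tgfbr3, the inhibin co-receptor, at 3484 and 5761 (1.65-fold higher). Inha, the inhibin alpha subunit, and Inhbb, another activin subunit, had log2 ratios of 0.52 and -0.49. The second Inhbb probe set read 89.1 and 90.8. The median was 0.12 and flips to -0.11 on the spiked controls.

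Kitl acts through Kit on the oocyte. Of 14 genes listed for Kit and its branch through PI3K, Akt and Foxo3, 12 were measured. The list also holds Pdk1, pyruvate dehydrogenase kinase 1, which is not a member of this branch. On the brightest probe set of each gene 0 passed 1.5-fold, with a median of -0.23. Another probe set passed it lower for Tsc1 (-0.93), Pdpk1 (-0.83) and Pdk1 (-0.79), and higher for Akt2 (0.80). Over the alternative settings up to 2 genes were lower and up to 1 higher. Foxo3, which holds oocytes quiescent, read 8128 in control and 5590.5 in mutant ovaries (log2 ratio -0.54), and 2667 and 2364 on a second probe set (-0.17). Kit read 2988 and 2055 (-0.54), and 96.2 and 107 on a dim second probe set. Tsc2 and Pik3r1, an inhibitor of mTOR signalling and a PI3K subunit, had log2 ratios of -0.33 and -0.32.

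On the brightest measured probe set of each gene, relatives of Runx1, of the Irx genes and of Gng13 passed 1.5-fold in 1 case. Of 6 measured RUNX relatives and partners 0 passed it, and Cbfb, the binding partner of Runx proteins, had a log2 ratio of 0.55, Runx1t1 0.33, Tle3 -0.17 and Cbfa2t3 -0.14. Of 6 measured Iroquois and other TALE homeobox genes 0 passed it, with 0.36 for Meis1, -0.23 for Pknox1, -0.22 for Pbx3 and 0.17 for Pbx2. Irx1, Irx2, Irx4 and Irx6 were all under the signal minimum, so Irx3 and Irx5 were the only Iroquois genes measured. Of 11 measured G protein beta and gamma subunits, Gng10 alone passed it, at 2749 and 4363 (1.59-fold higher), with 0.45 for Gng2, 0.42 for Gng8 and 0.23 for Gng11. The medians of these lists lay within 0.03 of 0 and change sign under a scaling alternative. Another probe set passed 1.5-fold for Pbx2 (-0.84), Meis2 (0.66) and Gng2 (0.62).

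Of 13 genes listed for Sertoli cells, 12 were measured, and any part of Foxl2 in their readings was not tested. They were not all dim in the control pool, where Clu read 9130 and Aard 2987. Of the 12, 5 were 1.5-fold higher and 1 lower, with a median of 0.39. With a stricter minimum of 442.4 (percentile 75 of the values) 0 were higher, since those 5 then were not measured. Cldn11, a tight junction protein, read 36.4 in control and 396 in mutant ovaries, at least 4.90-fold higher. Cyp26b1, which breaks down retinoic acid, read 87.5 and 332 (3.79-fold higher), Gdnf, a growth factor, 105 and 331 (3.15-fold higher), and Sox9, the Sertoli transcription factor, 53.0 and 141 (at least 1.75-fold higher). Rhox5, a homeobox gene, was the remaining one, at 91.5 and 151, and Ptgds, a prostaglandin synthase, the one that was lower, at 877 and 502. The 5 higher genes had control signals of 105 or less, close to or under the minimum of 80.7, and Dmrt1 was too dim in both pools. Of the 3077 dimmest measured genes, with mean signals up to 232.4, 16.5% were 1.5-fold higher. Fgf9 and Clu were within 1.5-fold on their brightest probe sets, but another probe set passed it for each, at -0.85 and 0.84.

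By nearness of log2 ratio, the only likeness that 1 pair of pools allows, Nr5a2, Ptgds and Nkd1 were closest to Foxl2 among the 92 genes measured on the 8 gene lists above, at -0.84, -0.78 and -0.77. On the lists of markers of other cell types 5 genes were nearer than these, Figla at -0.96 and Pou5f1 at -0.88 (oocyte), Krt18 at -0.94 and Krt8 at -0.88 (surface epithelium) and Hemgn at -1.01 (erythroid). Over the whole array 93 other measured genes lay within 0.05 of the Foxl2 ratio.

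**Figure D3:**
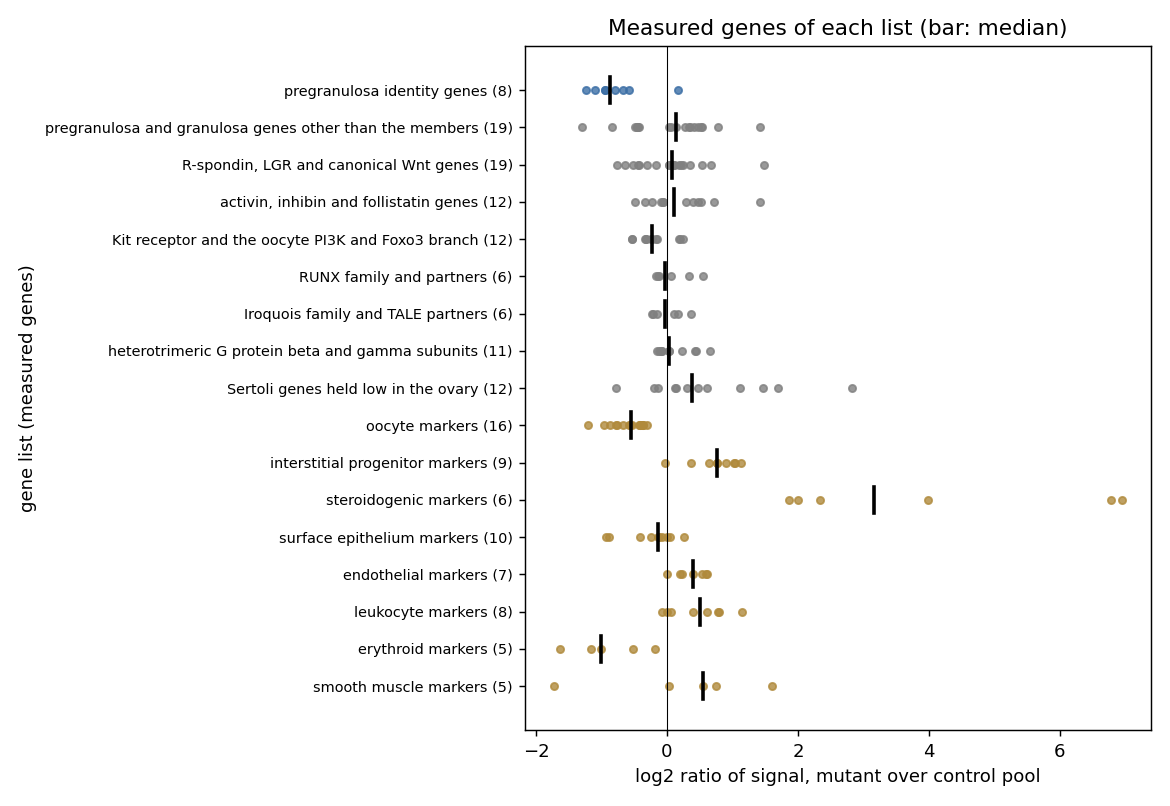
Log2 ratio of mutant over control for each measured gene (points) of the 8 pregranulosa genes, of the gene lists (grey) and of the cell type marker lists (brown), with the median as a bar and the number of genes in brackets. The 8 genes have a median of -0.87, the other pregranulosa and granulosa genes 0.13, oocyte markers -0.55 and steroidogenic markers 3.17.

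The defining genes of the ovary were present in both pools, with Foxl2 and 16 of 18 oocyte markers measured. The oocyte gene Bmp15 was under the signal minimum in both, at 62.3 and 52.0. Markers of the other cells of the ovary differed between the pools as well, and their part in the values above was not tested. Beside the counts below, 7.88% of all measured genes were 1.5-fold lower and 9.31% higher. All 16 measured of 18 oocyte markers had ratios under 0, as did 52.45% of all measured genes, 6 were 1.5-fold lower, and their median was -0.55. Their summed signal was 67196 in control and 46622 in mutant ovaries, with Sohlh1 at -1.21 and Figla at -0.96, both germ cell transcription factors. Interstitial progenitor markers were 1.5-fold higher for 7 of 9 measured (of 11 listed), with a median of 0.76 and sums of 62781 and 94015. Pdgfra was at 1.13 and Col1a1 at 1.04. Among the 7, measured probe sets of Tcf21 ran from -0.113 to 0.895 and those of Maf from 0.135 to 1.018. Steroidogenic markers were higher for all 6 measured of 8, with sums of 9416 and 53091, led by Cyp17a1 and Cyp11a1, which lay under the minimum in the control pool at 38.8 and 29.6. The 2 measured Cyp11a1 probe sets had log2 ratios of 0.26 and 6.79. Surface epithelium, a further site of Lgr5, had 2 of 10 markers 1.5-fold lower, Krt18 at -0.94 and Krt8 at -0.88, a median of -0.14 and sums of 6558.5 and 4758. Erythroid markers, of blood cells, were 1.5-fold lower for 3 of 5 measured of 6 (median -1.01, sums of 4457 and 2137), with Alas2 at -1.64, Slc4a1 at -1.16 and Hemgn at -1.01. Leukocyte markers, of cells where Runx1 is also active, were 1.5-fold higher for 4 of 8 measured of 9 (median 0.51, sums of 5118 and 8332), with C1qb at 1.15, Ptprc at 0.79, Csf1r at 0.77 and Lyz2 at 0.61. Endothelial markers were 1.5-fold higher for 2 of 7 measured of 8 (Pecam1 0.61, Eng 0.60, median 0.39, sums of 2294 and 2874). Smooth muscle markers were 1.5-fold higher for 2 of 5 measured of 6 (Actg2 1.61, Acta2 0.75, median 0.55, sums of 8677 and 13971), while Des read 91.4 and 12.1.

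The arrays shared a common scale, with a mean signal of 500.003 on each after trimming 2% of the values at either end, and 50.3% and 49.8% of probe sets reached the signal minimum. The ratio of 3′ to 5′ probe sets was 8.48 in control and 10.5 in mutant ovaries for beta-actin, and 3.28 and 4.98 for Gapdh. The part of this difference in the ratios above was not tested. Of 18 spiked hybridization control probe sets 17 were brighter on the mutant array, with a median log2 ratio of 0.23. Centred on them, the 8 genes had a median of -1.10, against -0.25 over all measured genes.

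**Figure D4:**
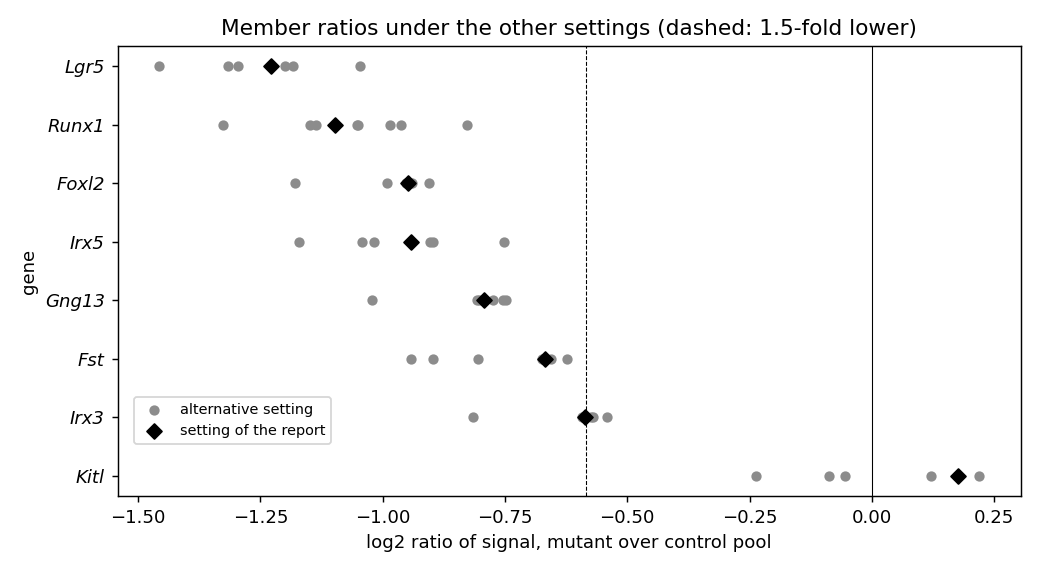
Log2 ratio of mutant over control for each of the 8 genes in the setting of the report (diamonds) and in the other settings (circles), with 1.5-fold lower as a dashed line. Foxl2, Lgr5, Runx1, Fst, Irx5 and Gng13 stay below that line in each setting that measured them, Irx3 lies at it, and Kitl falls on either side of 0.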

How the data were processed

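Total RNA from ovaries of single mice was combined in equal amounts into 1 pool of 8 animals per group and hybridised as biotin-labelled cRNA to 1 Affymetrix array per pool, per the labels' protocols. The authors deposited linear signal intensity values for 45101 probe sets per array. The software is GCOS, per the submitters' processing notes, and how it was set is not stated there. The annotation names 1 gene for 34945 probe sets outside the 64 control probe sets, several for 932 and none for 9211. Of the named ones 34741 matched a RefSeq table (GRCm38.p6) by Entrez ID and 0 symbols differed. The annotation names no build.

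Signals were used as deposited. The signal minimum was 80.7 and the pseudocount 22.2. The brightest measured probe set by mean signal stands for its gene. A fold with a value under the minimum is a lower bound, the brighter signal over 80.7. Counts at 1.5-fold use the log2 ratio. With 1 array per group no test was made. Named were the 8 genes, Amhr2, Smo, up to 4 measured genes with the largest ratios per list, up to 2 per marker list, and the 3 genes of the gene lists (marker lists not included) nearest to Foxl2 in log2 ratio. Genes given as too dim, Bmp15, Fto, Pou5f1, Rhox5, Hemgn, Csf1r, Lyz2 and Acta2 were named after their values were seen. So were Wnt4, Rspo1, Wt1, Emx2, Gsk3b, Clu, Fgf9, Aard, Tcf21, Maf, Meis2, Tsc1, Pdpk1, Pdk1 and Akt2. The genes and lists were chosen with earlier results of these data known. Scripts, in Python 3.11.15 with pandas 2.3.3 and numpy 2.4.6, were tested on simulated data. These were the control array with bright genes multiplied by set factors and no noise, so dim probe sets and differences between arrays were not covered. The 12 alternatives concern pseudocount, minimum, scale and choice of probe set.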

Additional observations from a re-analysis of the deposited data

How the results depend on the processing

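No paired analysis was possible because each group is 1 pool on 1 array. The median log2 ratio of the 8 genes ran from -1.10 to -0.75 over the 12 alternatives and from -0.94 to -0.79 with each gene left out in turn, and the count at 1.5-fold lower was 6 or 7. The count was 6 with 80.7 as pseudocount, with ratios centred on the median of measured probe sets and with quantile normalization, where Irx3 read -0.57, -0.54 and -0.57, and with the minimum at the 75th percentile, where Irx5 was not measured. Kitl moved from 0.18 to -0.24 on its dimmest measured probe set, and to -0.09 as a mean of its probe sets. The dim Runx1 probe set 1422865_at moved from -0.96 to -0.25 without a pseudocount and with values raised to the minimum. Centred on the spiked controls, the median of all measured genes shifted to -0.25, and 79.1% of genes past 1.5-fold were lower, against 45.8%. Counts in the gene and marker lists moved by over 1.5 times in 52 of 384 values. Among the other pregranulosa and granulosa genes the count lower ran from 0 to 7 and the count higher from 1 to 4, and for oocyte markers the count lower ran from 5 to 15, each highest lower count being with the spiked controls. The cause of these changes was not tested. Low signal limits the 6 probe sets under the minimum. Pools on 1 array each give no spread between animals.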

Other observations

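Of the protein-coding genes next to the 8 genes in RefSeq order, those beside Runx1 had the lowest measured ratios, leaving aside Irx3 and Irx5, which lie beside each other. Clic6, an intracellular chloride channel protein, read 119 in control and 64.5 in mutant ovaries (log2 ratio -0.70), with the mutant signal under the minimum, and Setd4, a methyltransferase, read 3664 and 2660 (-0.46). Faim, beside Foxl2, had a log2 ratio of -0.22, Zfc3h1, beside Lgr5, -0.02, Ndufs4 and Mocs2, on either side of Fst, -0.11 and 0.11, and Chtf18, beside Gng13, -0.13. The neighbours were looked up after the values of the 8 genes were seen.

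Gja1, the gap junction gene of granulosa cells and other somatic cells, was one of the other pregranulosa and granulosa genes whose probe sets disagreed, which was noticed after its values were seen. Its brightest probe set read 16360 in control and 17145 in mutant ovaries (0.07), while a dim one read 65.9 and 230.3 (1.52). Lhx9, a factor of gonad progenitors and surface epithelium, had log2 ratios of 0.47, 0.85 and 0.89 on its 3 probe sets, the reverse of the direction of Foxl2.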
